A study of Mus musculus with 20 samples.

Results

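The Tox genes encode nuclear proteins that share a single HMG-box DNA-binding domain. The 3 genes Tox, Tox2 and Tox4 were followed here, of 22878 gene symbols in the RNA tables of 12 libraries of sorted mouse CD4 T cells. Their rows were found by symbol, and each had a single transcript row, NM_145711 for Tox, NM_001098799 for Tox2 and NM_023434 for Tox4. The counted transcripts were 2852 bases long for Tox, 1675 bases for Tox2 and 4458 bases for Tox4. Tox3, the remaining gene of the family, had 2 reads in 1 spleen ZsGreen- library and 0 reads in the other 11. A count of 0 with a limit of 3 reads allows a Tox3 level of up to 0.027 to 0.0495 RPKM, depending on the library, and this limit covers counting error only.

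TOX is known for its part in CD4 T cell development in the thymus and for the gene programme of T cells under lasting antigen stimulation, where it is induced through calcineurin and NFAT. TOX2 is known to promote follicular helper T (Tfh) cells, the CD4 cells that enter B cell follicles and help B cells under control of the repressor BCL6. TOX4 is known as a widely expressed subunit of a nuclear protein phosphatase 1 complex with PNUTS (Ppp1r10) and WDR82.

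The study followed present and past expression of T-bet, the Th1 factor encoded by Tbx21. The spleen cells came from naive mice of the ZTCE-tdTomato strain on the C57BL/6 background, in which a T-bet construct drives both the green reporter ZsGreen and the recombinase CreERT2, and CreERT2 switches on a permanent tdTomato mark from the Rosa26 locus. CreERT2 acts only with tamoxifen or a like ligand, on which the sources used here give no dose or time. All spleen cells sequenced were CD4+CD44highCD25- and tdTomato+, and the groups were ZsGreen+ and ZsGreen-. The lymph node cells came from T-bet-Cre mice with the same Rosa26 tdTomato allele on the C57BL/6 background, which were immunized with AS15 peptide in complete Freund's adjuvant and sampled on day 16. These cells bound the AS15 tetramer and were sorted as Tfh (CXCR5highPD1high) Tomato+, Tfh Tomato-, non-Tfh (CXCR5lowPD1low) Tomato+ and non-Tfh Tomato-. The Tomato mark there records T-bet expression at any time up to sampling. Each group had 2 libraries, and nothing says whether these came from separate mice, so that p-values measure only the spread between these libraries, which may be technical.

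Total counts over genes were between 13169783 and 24174592 per library. Summed CD4 T cell markers (Cd3e, Cd3d, Cd3g, Cd4, Cd5, Cd28, Lck) were between 2020 and 3045 RPKM in every library, with none of the 7 at 0 in any group. Transcripts of other cells were present too. Neutrophil markers summed to 450 and 366 RPKM in replicate 2 of Tfh Tomato- and non-Tfh Tomato- cells and to 10.2 and 1.22 RPKM in their replicate 1, and in the spleen they summed to 1128 and 1179 RPKM in ZsGreen+ and 767 and 1041 RPKM in ZsGreen- cells. Among Tomato+ lymph node cells, neutrophil markers summed to 87.7 and 0.742 RPKM in non-Tfh replicates 1 and 2. In Tfh Tomato+ cells they summed to 1.31 and 2.66 RPKM. The 2 Tomato- replicate 2 libraries had the highest lymph node sums. The counts for the members and the pathway lists in Tfh against non-Tfh cells are therefore also given below without them. Non-Tfh Tomato+ replicate 1 was left out only on its own, as each library was. Tbx21, the gene behind the sort marks, averaged 204 RPKM in ZsGreen+ and 45.9 RPKM in ZsGreen- spleen cells, 79.4 RPKM in Tfh cells with the Tomato mark and 12.8 RPKM in those without, and 173 RPKM in marked non-Tfh cells and 10.4 RPKM in unmarked ones, which is the order of the sort labels.

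Tox2 had the widest range of the members. Its level ran from 3.33 RPKM in a spleen ZsGreen+ library to 277 RPKM in a Tfh Tomato- library, a span of 83.1-fold over 153 to 11903 reads. Tox ran from 18.5 RPKM in a spleen ZsGreen+ library to 207 RPKM in a Tfh Tomato- library, a span of 11.2-fold over 1438 to 17236 reads. Tox4 stayed between 18.3 and 44.3 RPKM, a span of 2.42-fold over 1548 to 5354 reads. Reads of closely related genes could be split between them by the authors' counting, and whether that counting used strand is not stated.

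The contrast between a gene with a wide range and one with a narrow range is the reason for printing the windows around their annotated starts, 250 bases before to 50 bases after, on the plus strand, from RefSeq with build GRCm38.p6. RefSeq lists 5 such windows for Tox2, in an upstream and a downstream group, and 1 for Tox4. No window was at hand for Tox, whose range was wide too. A link between window sequence and range was not tested. Which start the counted Tox2 transcript uses was not determined here. The first window and the last but one of Tox2 and the window of Tox4 are shown, with a match to the TCF/LEF motif in capitals.
Tox2 upstream start, chr2:163202877-163203176: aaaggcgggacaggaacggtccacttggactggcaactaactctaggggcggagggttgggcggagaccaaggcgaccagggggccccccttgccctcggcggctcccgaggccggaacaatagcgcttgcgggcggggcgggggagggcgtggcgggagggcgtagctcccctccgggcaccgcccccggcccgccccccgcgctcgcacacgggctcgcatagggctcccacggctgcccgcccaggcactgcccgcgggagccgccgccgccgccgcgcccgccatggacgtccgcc
Tox2 downstream start, chr2:163225203-163225502: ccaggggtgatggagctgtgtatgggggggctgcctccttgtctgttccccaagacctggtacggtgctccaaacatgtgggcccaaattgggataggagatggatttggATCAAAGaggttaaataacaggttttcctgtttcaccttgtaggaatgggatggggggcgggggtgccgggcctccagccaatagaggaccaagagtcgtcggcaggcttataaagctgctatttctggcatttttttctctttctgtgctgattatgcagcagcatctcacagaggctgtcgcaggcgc
Tox4 start, chr14:52278896-52279195: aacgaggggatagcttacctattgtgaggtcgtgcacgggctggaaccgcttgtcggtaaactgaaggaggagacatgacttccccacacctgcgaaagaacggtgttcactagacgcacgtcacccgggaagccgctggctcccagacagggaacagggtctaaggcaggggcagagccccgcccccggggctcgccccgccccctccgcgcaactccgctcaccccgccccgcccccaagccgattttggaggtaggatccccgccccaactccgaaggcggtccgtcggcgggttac
The upstream Tox2 window had 77% G and C and 38 CpG dinucleotides, and the Tox4 window had 65.7% G and C and 27 CpG. The downstream Tox2 window had 53.3% G and C and 7 CpG, close to the medians of 52.7% and 7 over all 32851 RefSeq windows of this length. Both strands were searched for the letters ATCAAAG (TCF/LEF), TGGAAA (NFAT), GGTGTGA (T-box), TGANTCA (AP-1) and TTCNNNGAA (BCL6 and STAT). The downstream Tox2 window held ATCAAAG, with its first base 140 bases before the start, and it overlapped no other motif searched. That motif was in 3.73% of all windows, against 21.4% for TGGAAA, 3.98% for GGTGTGA, 7.81% for TGANTCA and 8.3% for TTCNNNGAA. The upstream Tox2 window shown, the other upstream Tox2 windows and the Tox4 window held none of these letters. The last Tox2 window held the same ATCAAAG site, with its first base 141 bases before that window's start.

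**Figure D1:**
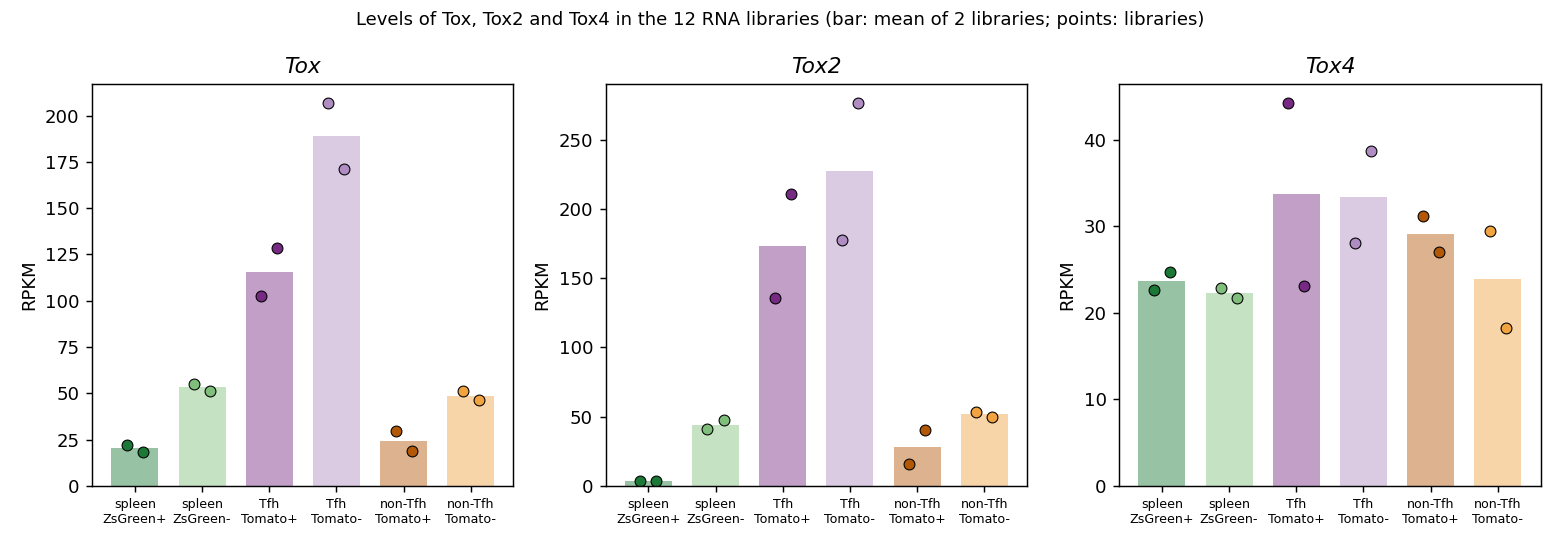
Level of Tox, Tox2 and Tox4 in RPKM on a linear axis in the 6 groups, with 1 point per library and a bar at the mean of 2 libraries. Tox2 lies at 3.33 and 3.65 RPKM in spleen ZsGreen+ cells and between 136 and 277 RPKM in Tfh cells, while Tox4 stays between 18.3 and 44.3 RPKM in all libraries.

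By mean level, the order for Tox was Tfh Tomato- (189 RPKM), Tfh Tomato+ (115 RPKM), spleen ZsGreen- (53.1 RPKM), non-Tfh Tomato- (48.6 RPKM), non-Tfh Tomato+ (24.1 RPKM) and spleen ZsGreen+ (20.3 RPKM). Neighbours in this order did not overlap between libraries, except non-Tfh Tomato+ and spleen ZsGreen+. The order for Tox2 was Tfh Tomato- (227 RPKM), Tfh Tomato+ (173 RPKM), non-Tfh Tomato- (51.6 RPKM), spleen ZsGreen- (44.1 RPKM), non-Tfh Tomato+ (28.3 RPKM) and spleen ZsGreen+ (3.49 RPKM), and here the libraries of both Tfh groups overlapped. For Tox4 all neighbouring groups overlapped, from 33.7 RPKM in Tfh Tomato+ cells to 22.3 RPKM in spleen ZsGreen- cells. Spleen and lymph node cells differ in strain, antigen exposure and tissue, so that levels across them are given side by side and were not tested.

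In naive spleen, cells that currently expressed T-bet, as read by ZsGreen, had less Tox and far less Tox2 RNA than cells that carried the tdTomato mark without ZsGreen. Tox2, the Tfh-promoting factor, was at 3.65 and 3.33 RPKM in ZsGreen+ cells, against 41.1 and 47.2 RPKM in ZsGreen- cells. Both ZsGreen+ libraries lay more than 10 times below both ZsGreen- libraries. The log2 fold change was -3.69 ± 0.12 (SE, 95% interval -3.97 to -3.42), a 12.9-fold lower level, with an edgeR quasi-likelihood adjusted p of 1.43e-07, the 9th smallest p of 12918 genes tested. Tox was at 22.2 and 18.5 RPKM in ZsGreen+ cells, against 54.9 and 51.4 RPKM in ZsGreen- cells. The groups did not overlap, and the log2 fold change was -1.42 ± 0.10 (SE, 95% interval -1.65 to -1.19), 2.68-fold lower, with an edgeR adjusted p of 8.48e-06. Tox4 was at 22.6 and 24.8 RPKM in ZsGreen+ cells, against 22.9 and 21.7 RPKM in ZsGreen- cells. These ranges overlapped, and the log2 fold change of 0.05 ± 0.08 had a 95% interval of -0.13 to 0.22 and an edgeR adjusted p of 0.706. Thus 2 of the 3 members fell, where 12.4% of all genes tested fell and 23.8% changed in either direction.

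Other transcripts that differed between these sorts stand beside that result. Markers of NK and innate-like T cells (Zbtb16, Klrb1c, Klrk1, Ncr1, Klra3, Klrd1) summed to 124 and 116 RPKM in ZsGreen+ and to 10.9 and 12.3 RPKM in ZsGreen- cells, with none of the 6 at 0 in either group, and macrophage and monocyte markers to 500 and 414 RPKM in ZsGreen+ and 290 and 329 RPKM in ZsGreen- cells. Dendritic cell markers summed to 13.2 and 10.5 RPKM in ZsGreen+ and 5.55 and 5.19 RPKM in ZsGreen- cells, and plasma cell markers to 36.4 and 33.3 RPKM in ZsGreen+ and 42.2 and 51.9 RPKM in ZsGreen- cells. Their part in the result was not tested. CD4 T cell markers summed to 2051 ± 43.9 RPKM in ZsGreen+ and 2471 ± 10.7 RPKM in ZsGreen- cells (SD, n = 2 each). The genes of this sum did not move alike. Cd4 averaged 194 RPKM in ZsGreen+ and 372 RPKM in ZsGreen- cells, and Cd5 averaged 122 and 245 RPKM. Cd3d was nearly level at 380 and 372 RPKM, as was Cd3e at 336 and 343 RPKM. Cd3g averaged 443 and 474 RPKM, Lck 501 and 569 RPKM and Cd28 75.3 and 96.0 RPKM. Per summed CD4 T cell marker RPKM, a ratio added after the members' values were seen, the log2 difference was -3.39 for Tox2, -1.12 for Tox and 0.35 for Tox4. In bulk libraries, fewer cells that express a gene and less RNA of it per cell cannot be told apart.

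Genes of the Tfh programme were lower in ZsGreen+ cells alongside Tox2. Of 23 genes on a list of that programme, 19 fell and 1 rose, where 12.4% of all genes tested fell and 11.4% rose. This list and the lists below were chosen with earlier results of these data known. The list's median log2 fold change was -1.20, against 0.00 over all genes tested. The 3 with the smallest adjusted p were Id3, an inhibitor of E proteins (log2 fold change -2.89 ± 0.08, edgeR adjusted p 1.43e-07), Cxcr5, the receptor that draws cells to the follicle (-2.47 ± 0.11, edgeR adjusted p 4.99e-07), and Tcf7, which encodes the HMG-box factor TCF1 (-1.70 ± 0.09, edgeR adjusted p 1.11e-06). The riser was Il4, a cytokine that Th2 and NKT cells make as well (3.18 ± 0.19, edgeR adjusted p 3.46e-06). Of 13 Tfh antagonists and Th1 regulators, 9 rose and 2 fell, where 11.4% of all genes rose. Id2, which opposes the Tfh fate, rose by a log2 fold change of 2.48 ± 0.13 (edgeR adjusted p 1.11e-06), and the 2 that fell were Klf2 and S1pr1, which act in T cell exit from lymphoid tissue. Tbx21 rose as well, but its reporter defined the sort.

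The list of calcineurin, NFAT, NR4A and EGR genes moved less. Tox is known to be induced through calcineurin and NFAT. Of 15 genes, 6 fell and 1 rose, where 12.4% of all genes tested fell and 11.4% rose. The median log2 fold change was -0.21, against 0.00 over all genes tested. Egr2, a factor induced by T cell receptor signals, fell by 1.27 on the log2 scale (SE 0.09, edgeR adjusted p 9.23e-06), Egr1 fell by 0.99 (SE 0.08, edgeR adjusted p 1.25e-05) and Nr4a1 fell by 0.68 (SE 0.07, edgeR adjusted p 0.000133). Nfatc1, an NFAT factor, fell by 0.65 (SE 0.07, edgeR adjusted p 0.000158), and the riser was Ppp3ca, a catalytic subunit of calcineurin (0.98 ± 0.13, edgeR adjusted p 0.000382). The calcineurin genes Ppp3cc, Ppp3cb and Ppp3r1 had log2 fold changes of 0.34, 0.18 and 0.16 and did not pass. Of 10 inhibitory receptors, 6 fell and 3 rose, where 23.8% of all genes tested changed in either direction. Among those that fell, Pdcd1, Btla and Cd200 are on the Tfh programme list too. Cd160 rose by a log2 fold change of 3.31 ± 0.11 (edgeR adjusted p 1.81e-07), while Pdcd1, which encodes PD-1, fell by 1.80 (SE 0.10, edgeR adjusted p 1.86e-06) and Cd200 by 2.21 (SE 0.11, edgeR adjusted p 1.16e-06).

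**Figure D2:**
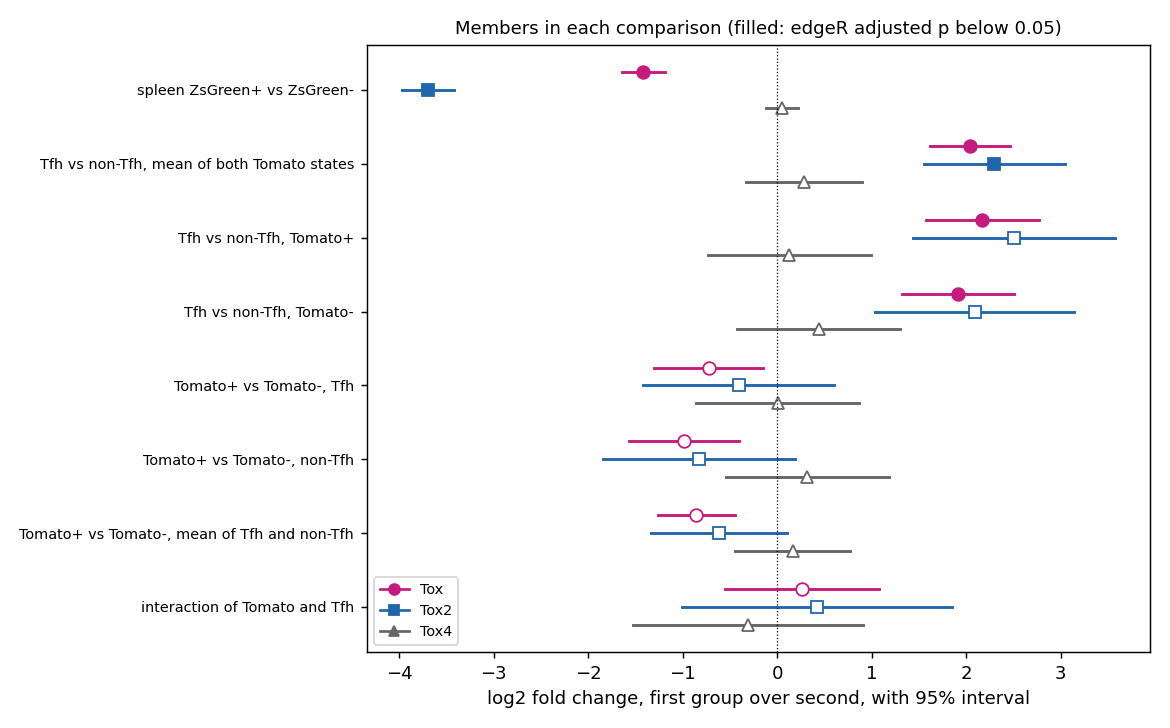
Log2 fold change of Tox, Tox2 and Tox4 in 8 comparisons, named on the axis with the group on top of the ratio first, with lines for the 95% interval from edgeR and filled points where the adjusted p is below 0.05. Tox2 in the spleen, at -3.69, lies farthest from 0, and the intervals of Tox4 include 0 in every comparison drawn.

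In the draining lymph node, Tox and Tox2 were both higher in Tfh than in non-Tfh cells, with or without the Tomato mark. Tox was at 103 and 128 RPKM in Tfh Tomato+ and 207 and 171 RPKM in Tfh Tomato- cells, against 29.5 and 18.8 RPKM in non-Tfh Tomato+ and 51.04 and 46.2 RPKM in non-Tfh Tomato- cells. The lowest of the 4 Tfh libraries was above the highest of the 4 non-Tfh libraries. Averaged over both Tomato states, the log2 fold change was 2.04 ± 0.18 (SE, 95% interval 1.62 to 2.46), 4.11-fold higher, with an edgeR adjusted p of 0.00376, the 7th smallest p of 11746 genes tested. Tox2 was at 136 and 210.5 RPKM in Tfh Tomato+ and 178 and 277 RPKM in Tfh Tomato- cells, against 16.0 and 40.5 RPKM in non-Tfh Tomato+ and 53.2 and 50.001 RPKM in non-Tfh Tomato- cells. Here too the Tfh and non-Tfh libraries did not overlap, but the spread between replicates was wider than for Tox. The log2 fold change of Tox2 was 2.30 ± 0.33 (95% interval 1.55 to 3.04), 4.91-fold higher, with an edgeR adjusted p of 0.0222.

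Tox4 was at 44.3 and 23.1 RPKM in Tfh Tomato+ and 28.1 and 38.7 RPKM in Tfh Tomato- cells, against 31.2 and 27.0 RPKM in non-Tfh Tomato+ and 29.4 and 18.3 RPKM in non-Tfh Tomato- cells. The groups overlapped, and the log2 fold change of 0.28 ± 0.27 had a 95% interval of -0.33 to 0.89 and an edgeR adjusted p of 0.793. In this comparison 2 of the 3 members rose, where 0.553% of all genes tested rose and 1.07% changed in either direction. The log2 fold change of Tox2 stayed between 2.04 and 2.73 over 17 alternatives. Its call held in 14 of them and depended on the libraries kept. It was lost without non-Tfh Tomato- replicate 1 (log2 fold change 2.31, edgeR adjusted p 0.0502), without non-Tfh Tomato- replicate 2 (2.28, edgeR adjusted p 0.0625) and without both Tomato- replicate 2 libraries (2.11, edgeR adjusted p 0.147), while the Tox call held in 17 of 17 alternatives, with adjusted p up to 0.0428.

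Within each Tomato state the same direction was seen. Among Tomato+ cells, Tox averaged 115 ± 18.2 RPKM in Tfh and 24.1 ± 7.55 RPKM in non-Tfh cells (SD, n = 2 each), with a log2 fold change of 2.17 ± 0.26 and an edgeR adjusted p of 0.0399. Among Tomato- cells, Tox averaged 189 ± 25.4 RPKM in Tfh and 48.6 ± 3.45 RPKM in non-Tfh cells, with a log2 fold change of 1.91 ± 0.26 and an edgeR adjusted p of 0.0382. Both of these calls were lost without any 1 of the 4 libraries compared, and the Tomato- call also without Tfh Tomato+ replicate 2, although the log2 fold change stayed between 1.77 and 2.51 over all such fits. Tox2 did not pass the threshold within either state, with log2 fold changes of 2.51 ± 0.47 (edgeR adjusted p 0.131) among Tomato+ and 2.09 ± 0.46 (edgeR adjusted p 0.219) among Tomato- cells. Its value among Tomato+ cells depended on the non-Tfh library kept, at 3.36 without non-Tfh Tomato+ replicate 2 and 1.98 without replicate 1. Tox4 gave 0.13 ± 0.38 among Tomato+ and 0.44 ± 0.38 among Tomato- cells, neither of which passed (edgeR adjusted p 1.0 and 0.834). Tox was the 1 member that rose in either state, where 0.0596% of all genes tested rose and 0.0766% changed among Tomato+ cells, and 0.0851% rose and 0.179% changed among Tomato- cells.

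The higher Tox and Tox2 levels in Tfh cells were also seen relative to T cell RNA. Per summed CD4 T cell marker RPKM, the log2 difference between Tfh and non-Tfh cells was 2.178 for Tox and 2.62 for Tox2 among Tomato+ cells, and 1.92 for Tox and 2.07 for Tox2 among Tomato- cells. For Tox4 it was 0.03 among Tomato+ and 0.47 among Tomato- cells. Macrophage and monocyte markers summed to 253 to 297 RPKM in Tfh and 87.4 to 142 RPKM in non-Tfh cells with the Tomato mark, and to 806 to 985 RPKM in Tfh and 1162 to 1171 RPKM in non-Tfh cells without it, with none of the 8 at 0 in any group. Their part in the Tfh difference was not tested.

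The Tfh sort was drawn on CXCR5 and PD-1, so that Cxcr5 and Pdcd1 describe the gate. Of the 23 genes of the Tfh programme, 8 rose and 0 fell by edgeR, where 0.553% of all genes tested rose. Their median log2 fold change was 0.80, against 0.01 over all genes tested. Besides these gate genes, the 8 were Bcl6, Il21, Il4, Ascl2, Sh2d1a and Sostdc1. Bcl6, the repressor that defines the Tfh lineage, rose by a log2 fold change of 2.11 ± 0.19 (edgeR adjusted p 0.00376), close in size to Tox and Tox2. Ascl2, a factor upstream of Cxcr5, rose by 7.09 ± 0.54, and Sostdc1, a secreted antagonist of BMP and Wnt signals, by 2.70 ± 0.20 (edgeR adjusted p 0.00237 for both). Of the 13 Tfh antagonists and Th1 regulators, 3 fell and 0 rose, where 0.519% of all genes fell. These were S1pr1, which guides exit from lymphoid tissue, at a log2 fold change of -1.89 ± 0.13 (edgeR adjusted p 0.00237), Id2 at -1.08 ± 0.14 (edgeR adjusted p 0.0131) and Il7r, the interleukin 7 receptor, at -2.24 ± 0.30 (edgeR adjusted p 0.0161). Of 15 genes of the calcineurin, NFAT, NR4A and EGR list, Nfatc1 rose (0.86 ± 0.11, edgeR adjusted p 0.0136) and no other gene passed. By log2 fold change, 9 of the 15 were higher and 6 lower in Tfh cells. Nr4a1 and Ppp3ca, next by adjusted p, were among those that were lower. Over 17 alternatives their log2 fold changes ran from -0.41 to -0.29 for Nr4a1 and from -3.39 to -1.60 for Ppp3ca. Each passed in 1 of the 17. The Nfatc1 and Id2 calls were each lost in 3 of 17 alternatives. Of 10 inhibitory receptors, 3 rose, which were Pdcd1, Tigit (0.95 ± 0.16, edgeR adjusted p 0.0399) and Cd160 (2.52 ± 0.43, edgeR adjusted p 0.0423). The Tigit call was lost in 10 of 17 alternatives and the Cd160 call in 9 of 17. Without both Tomato- replicate 2 libraries, 4 genes of the Tfh programme rose (Bcl6, Pdcd1, Ascl2 and Sostdc1), S1pr1 and Il7r fell, and of the inhibitory receptors only Pdcd1 rose. In that fit the edgeR adjusted p was 0.0688 for Cxcr5, 0.132 for Il21, 0.0652 for Il4, 0.0643 for Sh2d1a and 0.128 for Nfatc1, while their log2 fold changes of 2.28, 3.07, 4.198, 1.91 and 0.87 kept their direction.

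**Figure D3:**
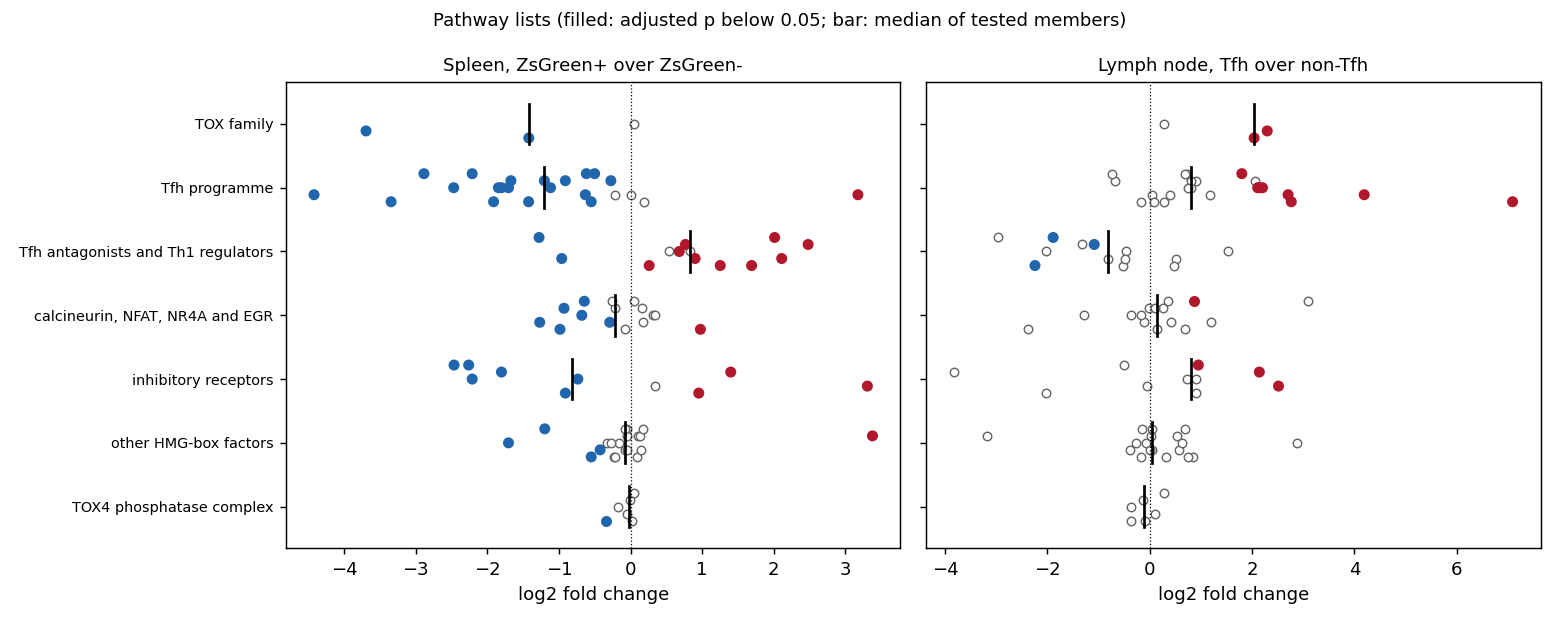
Log2 fold change of each tested gene of the pathway lists in spleen ZsGreen+ against ZsGreen- cells and in Tfh against non-Tfh cells, with 1 point per gene, coloured where the edgeR adjusted p is below 0.05, and a bar at the list's median. Of 23 Tfh programme genes, 19 fell in the spleen comparison and 8 rose in the lymph node comparison.

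Cells with the Tomato mark had lower mean Tox and Tox2 levels than cells without it, but these differences did not pass the threshold in edgeR. Among Tfh cells, the Tomato+ libraries (103 and 128 RPKM) lay below the Tomato- libraries (207 and 171 RPKM) for Tox, with a log2 fold change of -0.73 ± 0.25 (95% interval -1.30 to -0.15) and an edgeR adjusted p of 0.771. Among non-Tfh cells, the Tomato+ libraries (29.5 and 18.8 RPKM) lay below the Tomato- libraries (51.04 and 46.2 RPKM) for Tox, with a log2 fold change of -0.99 ± 0.25 (95% interval -1.57 to -0.41) and an edgeR adjusted p of 0.275. For Tox2, the log2 fold change was -0.41 ± 0.44 (edgeR adjusted p 1.0) among Tfh cells, where the groups overlapped, and -0.83 ± 0.44 (edgeR adjusted p 0.629) among non-Tfh cells, where they did not. Without 1 library, Tox2 ran from -0.74 to -0.06 in Tfh and from -1.71 to -0.33 in non-Tfh cells. Tox4 gave 0.01 ± 0.38 among Tfh and 0.32 ± 0.38 among non-Tfh cells. No member was called in these comparisons, where 0.111% of all genes tested changed in Tfh and 0.332% in non-Tfh cells.

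The Tomato contrast averaged over Tfh and non-Tfh cells was added after the members' values were seen. It gave -0.86 ± 0.18 for Tox (95% interval -1.27 to -0.45, edgeR adjusted p 0.111), -0.62 ± 0.31 for Tox2 (edgeR adjusted p 0.537) and 0.16 ± 0.27 for Tox4 (edgeR adjusted p 0.94), and 0.656% of all genes were called. DESeq2 called Tox here (-0.87, adjusted p 0.000396), and it was the 1 of 17 alternatives that did. The Tomato difference was not shown to differ between Tfh and non-Tfh cells. The interaction was 0.26 ± 0.35 for Tox, 0.42 ± 0.62 for Tox2 and -0.31 ± 0.53 for Tox4, each with an edgeR adjusted p of 0.99994. Of all genes, edgeR called 0 for the interaction (0.0%), with 746 at an unadjusted p below 0.05, limma called 0 and DESeq2 called 143.

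The Tomato sorts also differed in transcripts of other cells. Macrophage and monocyte markers (Lyz2, Cd68, Csf1r, Emr1, Itgam, Cybb, Fcer1g, Mpeg1) summed to 253 to 297 RPKM for Tfh Tomato+, against 806 to 985 RPKM for Tfh Tomato-, and to 87.4 to 142 RPKM for non-Tfh Tomato+, against 1162 to 1171 RPKM for non-Tfh Tomato-. Summed NK and innate-like T cell markers ran the other way, at 43.8 to 56.0 RPKM for Tfh Tomato+, against 9.6 to 17.8 RPKM for Tfh Tomato-. In non-Tfh cells they were at 82.2 to 92.0 RPKM for Tomato+, against 8.11 to 17.4 RPKM for Tomato-. Klrk1 averaged 23.4 against 3.83 RPKM in Tfh and 36.5 against 3.22 RPKM in non-Tfh cells. Klrd1 averaged 9.90 against 2.32 RPKM and 41.2 against 3.31 RPKM. Klrb1c was nearly level, at 8.72 against 7.42 RPKM and 6.92 against 6.19 RPKM. Zbtb16 averaged at most 0.59 RPKM in these groups. Of the 6 genes, 1 was at 0 in Tfh Tomato+ (Zbtb16), 2 in Tfh Tomato- (Ncr1 and Klra3) and 1 in non-Tfh Tomato- cells (Klra3). Plasma cell markers (Sdc1, Igj, Tnfrsf17, Derl3) were at 83.2 and 171 RPKM for Tfh Tomato+, against 18.8 and 54.3 RPKM for Tfh Tomato-, and at 108 and 220.5 RPKM for non-Tfh Tomato+, against 51.1 and 44.5 RPKM for non-Tfh Tomato-, with 1 of the 4 at 0 in each group. The part of these transcripts in the Tox and Tox2 differences was not tested. Per summed CD4 T cell marker RPKM, the Tomato difference was -0.83 for Tox and -0.51 for Tox2 in Tfh cells, and -1.09 for Tox and -1.06 for Tox2 in non-Tfh cells, on the log2 scale. For Tox4 it was -0.16 in Tfh and 0.28 in non-Tfh cells. All spleen cells were tdTomato+, so that the ZsGreen and Tomato comparisons differ in what they contrast and are given side by side.

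The balance between Tox and Tox2 separated the spleen groups but not the lymph node groups. The RPKM ratio of Tox2 to Tox was 0.165 and 0.18 in spleen ZsGreen+ cells, against 0.748 and 0.919 in spleen ZsGreen- cells. In Tfh cells it was 1.32 and 1.64 with the Tomato mark and 0.859 and 1.62 without it. In non-Tfh cells it was 0.544 and 2.16 with the mark and 1.04 and 1.08 without it, so that the Tomato+ libraries differed from each other more than any other pair and spanned all other lymph node libraries. Tox2 made up 7.35 ± 0.27% of the summed RPKM of the 3 members in spleen ZsGreen+ cells and 36.9 ± 3.34% in spleen ZsGreen- cells (SD, n = 2 each). Tox4 made up 49.9 ± 4.62% of that sum in spleen ZsGreen+ cells and 18.7 ± 0.88% in spleen ZsGreen- cells, and 7.38 ± 0.80% in Tfh Tomato- cells.

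**Figure D4:**
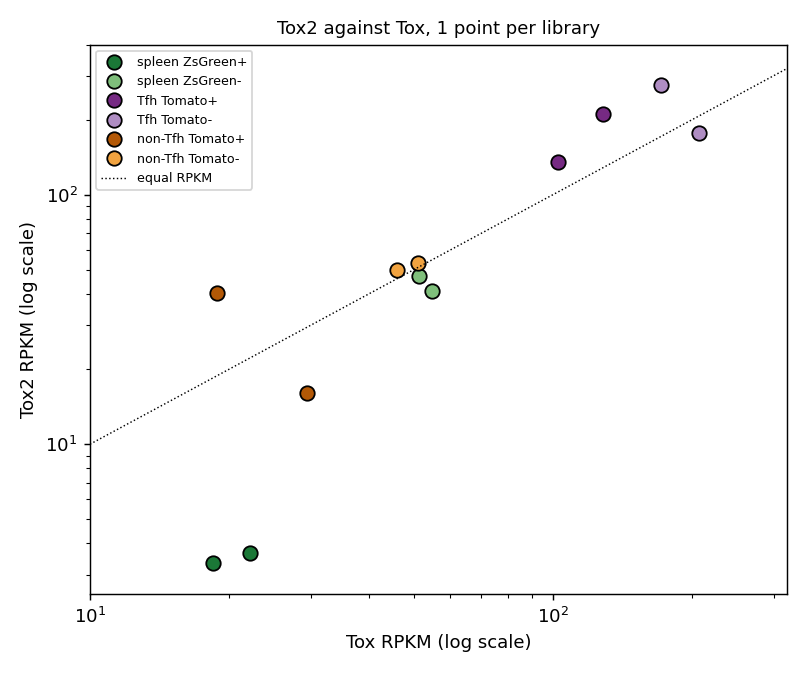
Tox2 level against Tox level, both in RPKM on log axes, with 1 point per library coloured by group. The spleen ZsGreen+ libraries, with Tox2 to Tox ratios of 0.165 and 0.18, lie apart from the other 10 libraries, whose ratios run from 0.544 to 2.16.

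Over the 12 libraries, each centred on the mean of its tissue, log2(RPKM + 1) of Tox and Tox2 had a Pearson r of 0.87, and of 0.90 over the 8 lymph node libraries alone. Tox4 had an r of 0.22 with Tox and 0.13 with Tox2. These values and those that follow describe points that share groups, libraries and depth, and they carry no test. Among 8757 genes with a group mean of at least 5 RPKM, the genes most like Tox were Nfatc1 (r 0.97), Gna13, a G protein subunit (0.96), Cstb, a protease inhibitor (0.96), Dennd2d (0.95) and Sostdc1 (0.95). Nfatc1 was at 52.7 RPKM in spleen ZsGreen+ and 80.3 RPKM in spleen ZsGreen- cells, 145 RPKM in Tfh Tomato+ and 164 RPKM in Tfh Tomato- cells, and 72.2 RPKM in non-Tfh Tomato+ and 90.7 RPKM in non-Tfh Tomato- cells, the same order as Tox within each tissue. The genes most like Tox2 were Dck, which encodes deoxycytidine kinase (r 0.96), Angptl2, a secreted glycoprotein (0.95), Trim59 (0.95), Cxcr5 (0.95) and Rgs10, a regulator of G protein signalling (0.94). The genes most like Tox4 were Fam40a (r 0.94), Sfn (0.93), Snord22 (0.93), Mdm2, which encodes the ubiquitin ligase of p53 (0.92), and Vamp5 (0.92), and in all 5 of them non-Tfh Tomato- replicate 2 was the lowest lymph node library, as it was for Tox4. Bcl6 had an r of 0.94 with Tox and 0.83 with Tox2, and Tbx21 had an r of -0.58 with Tox and -0.56 with Tox2.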

How the data were processed

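Polyadenylated RNA of 12 libraries was analysed, in 6 groups taken from the sample titles and conditions. As deposited, each table lists RPKM and whole-number counts of reads for RefSeq transcript rows. The RPKM values are the authors' own, reads per kilobase of transcript scaled to the library. In the spleen tables the headings of count and length are swapped, and the column used as counts is the one whose ratio to length is proportional to RPKM. The build was mm9, and CASAVA 2.18, Bowtie2, edgeR and SICER 1.1 are named without their roles, per the submitters' processing notes. Of 29257 rows, the row with most reads was kept for each of 22878 symbols, 4019 of which had more than 1.

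Counts were tested with edgeR 4.0.16 in R 4.3.3 (TMM, filterByExpr, quasi-likelihood F test, Benjamini-Hochberg adjusted p below 0.05 over all genes tested). The 4 spleen libraries were fitted alone and the 8 lymph node libraries together, with 1 mean per group. SE is the absolute log2 fold change over the square root of F. The common biological coefficient of variation was 0.0867 for spleen libraries and 0.908 for lymph node libraries. On simulated counts, 94% of 2-fold and 100% of 8-fold changes were recovered among 12891 genes for the spleen comparison, and 13% and 50% among 12163 genes for Tfh against non-Tfh. Each fold size was given to 100 genes. Of the genes left unchanged, 8 were called for the spleen comparison and 10 for Tfh against non-Tfh. Alternatives used DESeq2 1.42.0, limma 3.58.1 on log2(RPKM + 1) and log2(RPKM + 0.1), other size factors, filters and rows, a replicate block, fewer libraries, and each library left out.

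The members and the 7 pathway and 9 marker lists were chosen with earlier results of these data known. Named genes were the members, up to 3 genes per list with the smallest adjusted p, and the 5 genes most like each member. Other list genes that passed were named after their values were seen, as were the correlations of Bcl6 and Tbx21. DNase islands were not analysed here, so that a planned description of islands at the member genes was not run. Promoter windows were read from RefSeq, which matched Tox2 and Tox4.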

Additional observations from a re-analysis of the deposited data

How the results depend on the processing

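Spleen calls of Tox and Tox2 held in 12 of 12 alternatives, with log2 fold changes from -1.58 to -1.28 for Tox and from -3.81 to -3.33 for Tox2, and the number of genes called there was between 2523 and 3264 without 1 library. Tox in Tfh against non-Tfh cells held in 17 of 17. Deviations from the group mean of same-numbered libraries had an r of 0.12 in the single spleen pair and of -0.01 to 0.03 in 6 lymph node pairs, so the numbers were not taken as pairs, although both Tomato- replicate 2 libraries carry neutrophil transcripts. With the replicate block, 75 genes were called for Tfh against non-Tfh, 1 among Tomato+ cells and 23 for Tomato+ against Tomato- in non-Tfh cells, and edgeR gave Tox 2.20 (adjusted p 0.0575) among Tomato+ and 1.90 (0.0518) among Tomato- cells. Tox within the Tomato states also fell below the threshold with all transcript rows summed (2.1798 among Tomato+, 1.91 among Tomato-), with only the 4 libraries compared (2.20 and 1.92) and with both Tomato- replicate 2 libraries left out (2.17 and 1.995), where Tox2 in the averaged contrast was 2.11. Tox2 passed among Tomato+ cells with DESeq2 (2.52), limma on log2(RPKM + 1) (2.68) and no filter (2.52), and among Tomato- cells with DESeq2 (2.08). DESeq2 alone called Tox for Tomato in non-Tfh cells (-1.02) and in the averaged Tomato contrast (-0.87). Tox4, never called, turned sign for Tomato in Tfh cells with median-of-ratios factors (-0.0022), DESeq2 (-0.0021), limma with pseudocount 1 (-0.040) and 0.1 (-0.043), no filter (-0.0013), the 5 RPKM filter (-0.017), summed rows (-0.0017), the replicate block (-0.074) and only the 4 libraries (-0.0034). With both Tomato- replicate 2 libraries left out it turned among Tomato- cells (-0.090) and in the interaction (0.21). The cause of these changes was not tested.

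In the order Tfh against non-Tfh averaged, among Tomato+ and among Tomato- cells, and Tomato+ against Tomato- in Tfh, in non-Tfh and averaged, the main fit's calls numbered 126, 9, 21, 13, 39 and 77, and DESeq2 called 725, 414, 524, 258, 554 and 640, with 143 for the interaction. The other values beyond 1.5 times follow. Among Tomato+ cells, limma with pseudocount 1 called 29 genes, limma with 0.1 called 23, no filter 49, the 5 RPKM filter 18, and summed rows, only the 4 libraries and both Tomato- replicate 2 libraries left out each 0 by edgeR, with 906, 1115 and 1083 at an unadjusted p below 0.05. Among Tomato- cells the counts were 43 with limma and pseudocount 1, 52 with no filter, 9 with summed rows, and 0 with only the 4 libraries and without both replicate 2 libraries (883 and 851 unadjusted, edgeR). For Tomato in Tfh cells they were 29 and 21 with limma, 25 with no filter, 20 with the 5 RPKM filter, 8 with summed rows, and 0 in both edgeR fits with fewer libraries (729 and 759 unadjusted). For Tomato in non-Tfh cells they were 71 and 59 with limma, 65 with no filter, 10 with summed rows, 3 with only the 4 libraries and 6 without both replicate 2 libraries. Without those libraries 27 genes were called for Tfh against non-Tfh averaged and 46 for Tomato averaged.

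Leaving out 1 library at a time, calls ran from 46 to 84 for Tfh averaged, 0 to 12 among Tomato+ (571 to 750 unadjusted where edgeR called 0), 6 to 24 among Tomato-, 2 to 18 for Tomato in Tfh, 5 to 46 in non-Tfh and 38 to 94 averaged. Tox ran from 1.90 to 2.51 among Tomato+, 1.77 to 2.05 among Tomato- and -0.016 to 0.59 in the interaction. Tox2 ran from 2.04 to 2.73 averaged and -0.11 to 1.27 in the interaction. Tox4 ran from -0.0047 to 0.10 in the spleen, -0.00061 to 0.48 for Tfh averaged, -0.44 to 0.53 among Tomato+, -0.55 to 0.41 for Tomato in Tfh, -0.12 to 0.36 for Tomato averaged and -0.87 to 0.090 in the interaction. A lone library left in a group is assumed to vary like the other groups. The lowest count of a member was 153 reads, and no result was recomputed at a matched depth.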

Other observations

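Among other HMG-box factors, 5 of 20 tested genes were called in the spleen, near the 23.8% called over all genes. Of these, Tcf7, Lef1, Sox4 and Hmgb2 fell and Sox13 rose in ZsGreen+ against ZsGreen- cells. Tcf7 and Lef1 are on the Tfh programme list too. The median log2 fold change over the 20 was -0.08. Tcf7, the TCF1 gene, was at 107 and 99.97 RPKM in ZsGreen+ and 315 and 341 RPKM in ZsGreen- cells. Lef1, its close relative, fell by 0.55 on the log2 scale (SE 0.08, edgeR adjusted p 0.000682). Sox13 had a log2 fold change of 3.38 ± 0.68 (edgeR adjusted p 0.00552), a call that was lost in 1 of 9 alternatives. Its levels were very low, at 0.488 and 0.206 RPKM in ZsGreen+ and 0.028 and 0.035 RPKM in ZsGreen- cells. In Tfh against non-Tfh cells 0 of 18 tested genes of this list were called by edgeR, against 1.07% of all genes, and the median log2 fold change was 0.04. Tcf7 there was at 369 and 487 RPKM in Tfh Tomato+ and Tomato- cells and at 173 and 336 RPKM in non-Tfh Tomato+ and Tomato- cells, and its difference passed in 5 of 17 alternatives.

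Of the 6 genes of the TOX4 phosphatase complex, Tox4 among them, 1 was called in the spleen, where 23.8% of all genes were. Ppp1ca, a catalytic subunit of protein phosphatase 1, fell in spleen ZsGreen+ cells by 0.34 on the log2 scale (SE 0.07, edgeR adjusted p 0.00872). In Tfh against non-Tfh cells, where 1.07% of all genes were called, edgeR called 0 of 6, with a median log2 fold change of -0.12.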
